A study of Saccharomyces cerevisiae with 6 samples.

Results

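Yeast can turn pyruvate into acetyl-CoA in the cytosol by a route that bypasses the pyruvate dehydrogenase complex, and each of its 3 steps is run by a small family of isoenzymes. Pyruvate decarboxylase (PDC1, PDC5, PDC6) splits pyruvate into acetaldehyde, aldehyde dehydrogenase (ALD2, ALD3, ALD4, ALD5, ALD6) oxidises acetaldehyde to acetate, and acetyl-CoA synthetase (ACS1, ACS2) joins acetate to coenzyme A. These 10 genes were taken by symbol from the 5539 genes named on the arrays. Each was printed as 2 spots, 20 in all, whose values were averaged on each array.

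Transcript levels in a met4 deletion mutant of Saccharomyces cerevisiae were set directly against those in the wild type on 6 two-colour arrays of total RNA, with the mutant labelled with Cy3 and the wild type with Cy5. Both strains had been treated with arsenite, As(III), at 0.2 mM for 1 hour, and no unexposed cells were analysed here, so a difference that needs arsenite cannot be told apart from one already present without it. The arrays form 1 group of 6 replicates, and the labels give neither the strain background, the deleted part of MET4 nor whether the replicates were separate cultures. P-values therefore cover only how much these arrays vary, which may be technical. Met4 is the activator of the sulfate assimilation and sulfur amino acid genes.

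Several of these isoenzymes are known to be exchanged for one another. Pdc1 is the main pyruvate decarboxylase of fermenting cells, Pdc5 takes over when Pdc1 is missing, and Pdc6 is a minor form with few sulfur-containing amino acids. Ald6 is the main cytosolic acetaldehyde dehydrogenase on glucose and makes NADPH, while Ald4 is the main mitochondrial form. In yeast exposed to cadmium, a metal that like arsenite binds to glutathione, Pdc6 is known to replace Pdc1 and Ald6 to replace Ald4, exchanges that spare sulfur in the protein pool and belong to a response in which Met4 takes part.

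All values are log2 ratios of mutant over wild type after each array was centred on the median of its spots, so 0 is the typical spot of an array. The log base (taken as 2) and the numerator are not stated in the sources used here. The direction is called likely, from the order of strains in the titles and from MET4 itself. MET4 lay below the array median on 6 of 6 arrays, at -0.59 ± 0.25 (SD, n = 6, limma, adjusted p = 0.0112). For a deleted gene this is weak support. Of all genes 8.18% were below 0 on 6 of 6 arrays, and MET4 was only the 243rd lowest. Its percentile among genes ran from 3.4 to 24.0. The dye labels do not settle the direction, since a ratio of Cy5 over Cy3 would be wild type over mutant. As deposited, the MET4 value was above 0 on array 3, at 0.59, and its mean of -0.47 did not pass (limma, adjusted p = 0.600). Before centring, the array medians ran from -0.95 to 0.92. Across genes, r between arrays was lowest for arrays 2 and 4 (0.0817) and highest for arrays 3 and 5 (0.759), and the median SD per gene between arrays was 0.35. No array had the dyes swapped, so for a single gene dye bias and mutation cannot be told apart, and the number of arrays limits the precision.

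ALD3 and ALD4 were higher and PDC6 was lower in the mutant than in the wild type, while the other 7 isoenzymes did not pass the test. In the likely direction, ALD3 was the 3rd highest of all 5539 genes and ALD4 the 26th highest. Were the ratio wild type over mutant, they would be the 3rd and 26th lowest, and every "higher" and "lower" here, with its share of all genes, would change places. PDC6 moved much less, by 0.55 on the log2 scale. A gene counted as changed at an adjusted p of at most 0.05 in limma's test of its mean log2 ratio against 0, with Benjamini-Hochberg adjustment over all genes. The 2 higher members of 10 stand beside 9.41% of all genes called higher, and the 1 lower member beside 5.69% called lower (15.1% called in either direction). Over all genes 521 were higher and 315 lower after centring, against 187 and 59 in the values as deposited, and centring moved the median of the gene means to 0.0053, against 0.12 as deposited. The median of the 10 means was 0.17. The 3 called members were also the ones with a single sign on all 6 arrays, which 18.1% of all genes had (either sign).

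**Figure D1:**
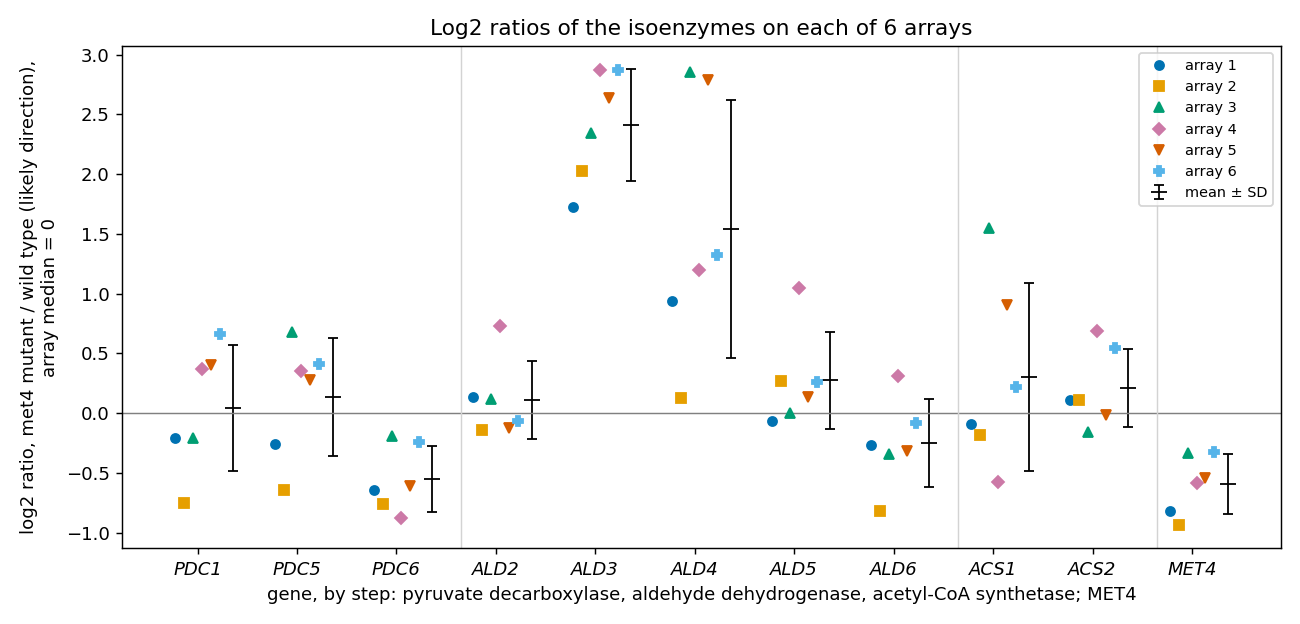
Log2 ratio of mutant over wild type (vertical axis, array median at 0) for the 10 isoenzymes by step and for MET4, with 1 symbol for each of the 6 arrays and the mean ± SD as a bar. ALD3 lies between 1.73 and 2.87 and ALD4 between 0.13 and 2.85, PDC6 is below 0 on every array, and the remaining isoenzymes lie on both sides of 0.

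In the first step, PDC6 was the member that differed. Its log2 ratio ran from -0.88 on array 4 over a median of -0.62 to -0.19 on array 3, with a mean of -0.55 ± 0.28 (SD, n = 6), a 1.47-fold lower level in the mutant (limma, adjusted p = 0.0169). By exact permutation of the signs over the 6 arrays, two-sided, p was 0.0312, the lowest value such a design can give. It was below 0 on 6 of 6 arrays, which 8.18% of all genes were. It stood between the 3.3rd and the 8.7th percentile of genes on arrays 1, 2, 4 and 5, and at the 33.9th and 26.4th on arrays 3 and 6, where it was well inside the bulk of genes. With 5 arrays the call was narrowly lost without array 1 (mean -0.54; limma, adjusted p = 0.0547) or array 5 (-0.54; 0.0519), and it held without array 2, 3, 4 or 6. It was also lost in the values as deposited (mean -0.44, limma, adjusted p = 0.667), where PDC6 stood at 0.73 on array 3.

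PDC1, the main form, showed no common direction over the arrays. Its log2 ratio ran from -0.76 on array 2 over a median of 0.08 to 0.66 on array 6, with a mean of 0.05 ± 0.53 (limma, adjusted p = 0.899). It was above 0 on arrays 4, 5 and 6 and below 0 on arrays 1, 2 and 3. PDC5, the form that can replace it, ran from -0.64 on array 2 over a median of 0.31 to 0.68 on array 3, with a mean of 0.14 ± 0.49 (limma, adjusted p = 0.646). It was below 0 on arrays 1 and 2 only. All 3 pyruvate decarboxylase genes were below -0.6 on array 2, where they lay within 0.12 of one another.

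The PDC6 ratio was below that of PDC5 on 6 of 6 arrays, with a difference of -0.69 ± 0.40 on the log2 scale (range -1.23 to -0.12, exact permutation, two-sided, p = 0.0312, adjusted p = 0.0547 over 14 pairs). Against that of PDC1, the PDC6 ratio was lower on 5 of 6 arrays, with a difference of -0.60 ± 0.54 (range -1.25 to 0.01, exact permutation, p = 0.0938, adjusted p = 0.131). That gap was -0.90 or wider on arrays 4, 5 and 6, -0.44 on array 1, and nearly closed on arrays 2 and 3, at -0.0051 and 0.01. PDC5 and PDC1 differed by 0.09 ± 0.41 (range -0.25 to 0.89; exact permutation, p = 0.875), with the lead on array 3 as the one wide gap. The 13056 spots, in the order of the deposited values, were cut into 48 runs of equal length, called print-order runs here. Whether that order follows the printing was not tested. PDC1 and PDC6 lie in the same run, so a shift shared by its spots moves both alike. The median of that run was -0.69 on array 4, and relative to it PDC6 stood at -0.19 and PDC1 at 1.06 there. With every such run centred on its own median, PDC6 had a mean of -0.58 (limma, adjusted p = 0.0198). The 3 genes are paralogs, and whether RNA of one bound to spots of another was not tested.

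The second step held the widest spread between isoenzymes. ALD3 encodes a cytosolic, NAD-dependent aldehyde dehydrogenase that is induced by stress and on non-fermentable carbon and that also makes beta-alanine for coenzyme A synthesis. Its log2 ratio ran from 1.73 on array 1 over a median of 2.49 to 2.87 on arrays 4 and 6, with a mean of 2.41 ± 0.47 (SD, n = 6), a 5.33-fold higher level in the mutant (limma, adjusted p = 7.73e-06; exact sign-flip permutation, p = 0.0312). All 6 arrays placed it at the 99.4th percentile of genes or above. Under the alternative settings and with each array left out its mean stayed between 2.28 and 2.55, and its highest adjusted p in limma was 0.00022.

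ALD2 encodes the closest relative of Ald3, and the genes lie next to each other on chromosome XIII in the R64 gene table. Its log2 ratio ran from -0.14 on array 2 over a median of 0.02 to 0.73 on array 4, with a mean of 0.11 ± 0.33 (limma, adjusted p = 0.669). It was above 0 on arrays 1, 3 and 4 and below 0 on arrays 2, 5 and 6. The ALD3 ratio exceeded that of ALD2 on 6 of 6 arrays, by 1.59 at the least and 2.94 at the most, with a mean difference of 2.31 ± 0.48 on the log2 scale (exact permutation, p = 0.0312, adjusted p = 0.0547). The mean difference is 4.95-fold as a ratio of the genes' ratios. Whether RNA of one bound to spots of the other was not tested.

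ALD4, the main mitochondrial form, is repressed by glucose and supports growth on ethanol. Its log2 ratio ran from 0.13 on array 2 over a median of 1.26 to 2.85 on array 3, with a mean of 1.54 ± 1.08 (SD, n = 6), a 2.91-fold higher level in the mutant (limma, adjusted p = 0.00571; exact sign-flip permutation, p = 0.0312). Arrays 3 and 5 were the highest, at 2.85 and 2.79, arrays 1, 4 and 6 lay at 0.94, 1.20 and 1.33, and on array 2 the gene stood at the 63.6th percentile, close to the typical gene. It was above 0 on 6 of 6 arrays, which 9.89% of all genes were, but its SD was at the 99.2nd percentile of genes. The call held under every alternative run, with a highest adjusted p of 0.0229 in limma, and with arrays 3 and 5 averaged and counted as 1 the mean was 1.28 (limma, adjusted p = 0.0162).

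ALD5, a minor mitochondrial form, ran from -0.07 on array 1 over a median of 0.20 to 1.05 on array 4, with a mean of 0.27 ± 0.40 (limma, adjusted p = 0.264). Array 4 stood apart, and the other arrays were at 0.27 or below. ALD6, the main cytosolic form, ran from -0.82 on array 2 over a median of -0.29 to 0.31 on array 4, with a mean of -0.25 ± 0.37 (limma, adjusted p = 0.287). ALD6 was below 0 on 5 of 6 arrays and did not pass under any alternative run. Within the step, however, ALD6 had the lowest ratio of the 5 genes on each of the 6 arrays, whereas the highest was ALD3 on 4 arrays and ALD4 on arrays 3 and 5.

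**Figure D2:**
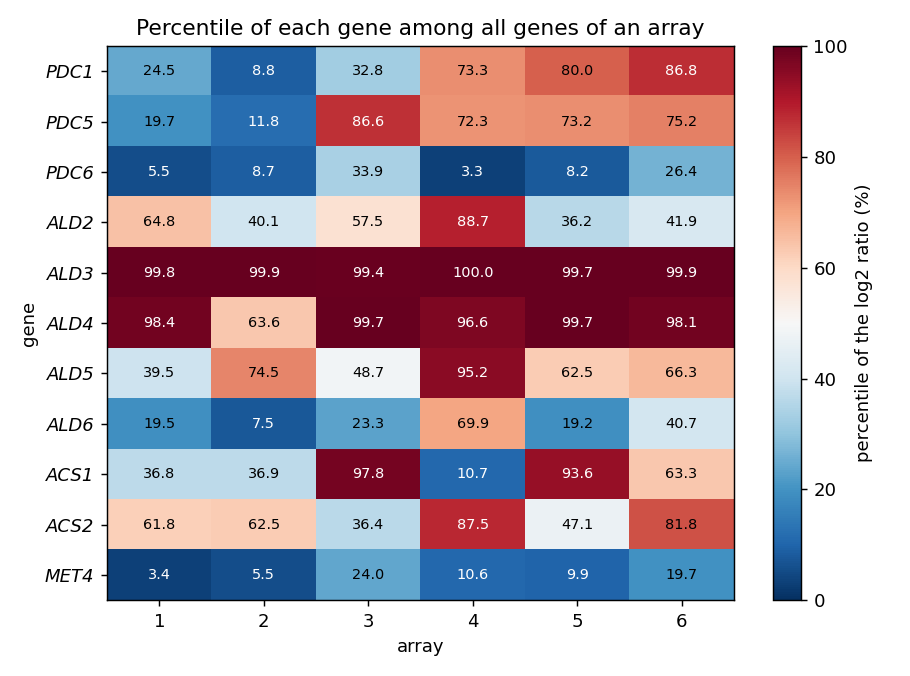
Percentile of each gene's log2 ratio among all genes of the same array (colour and number, 0 to 100%), with genes down the page and arrays 1 to 6 across. ALD3 is at 99.4% or above throughout, ALD4 is at 96.6% or above except on array 2 (63.6%), and ACS1 swings from 10.7% on array 4 to 97.8% on array 3.

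The ALD4 ratio exceeded that of ALD6 on 6 of 6 arrays, by 1.79 ± 1.07 on the log2 scale (range 0.89 to 3.19, exact permutation, p = 0.0312, adjusted p = 0.0547). This is the pair of mitochondrial and cytosolic forms known to be exchanged under cadmium. The gap was 3.19 and 3.11 on arrays 3 and 5 and between 0.89 and 1.41 on the other 4 arrays. The ALD3 ratio exceeded that of ALD6 by 2.67 ± 0.37 (range 1.99 to 2.96) and that of ALD5 by 2.14 ± 0.39 (range 1.76 to 2.61), each on 6 of 6 arrays with the same p-values. Smaller gaps of a single sign separated ALD5 from ALD6, at 0.53 ± 0.33, and ALD2 from ALD6, at 0.36 ± 0.23. The gap between ALD2 and ALD6 narrowed to 0.01 on array 6.

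The ALD2 ratio was below that of ALD4 on all 6 arrays, with a difference of -1.43 ± 1.14. The remaining 3 pairs of the step were not ordered the same way on every array. ALD3 minus ALD4 was 0.87 ± 1.01 (range -0.51 to 1.90; exact permutation, p = 0.125, adjusted p = 0.159), since ALD4 led on arrays 3 and 5. ALD4 minus ALD5 was 1.27 ± 1.25 (exact permutation, p = 0.0625, adjusted p = 0.0972) and was below 0 on array 2 alone. ALD2 minus ALD5 was -0.17 ± 0.26 (range -0.41 to 0.20; exact permutation, p = 0.156, adjusted p = 0.182).

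Over the 3 steps, 8 of 14 isoenzyme pairs differed in the same direction on all 6 arrays, against 20.6% of all pairs of genes on the arrays. The pairs share members (ALD6 stands in 4 of them), so they are not independent. None (0) passed an adjusted p of 0.05 in the exact test, although 8 had an unadjusted p under 0.05. These 8 share the smallest p that 6 arrays allow, 0.0312, which becomes 0.0547 when 8 of 14 pairs hold it. In limma's test of the same differences, added after seeing the data, 9 of 14 passed, with adjusted p-values of 1.3e-05 for ALD3 minus ALD2, 0.0041 for ALD4 minus ALD6, 0.0138 for PDC6 minus PDC5 and 0.0359 for PDC6 minus PDC1. There limma borrowed its estimate of variance from these 14 overlapping pairs alone, not from all genes. These differences are taken within an array, so centring whole arrays leaves them as they are. Centring by print-order run does move them: PDC6 minus PDC5 was then -0.49 and PDC5 minus PDC1 -0.11. In the exact test 9 pairs then passed at an adjusted p of 0.0486. ALD3 minus ALD4 had joined the 8 at the smallest p, 0.0312, and more ties lower the adjusted p. The unadjusted p of those 8 pairs had not changed. The lowest and highest value of a pair over the 6 arrays bound the 96.9% interval that the sign-flip test gives for its difference.

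**Figure D3:**
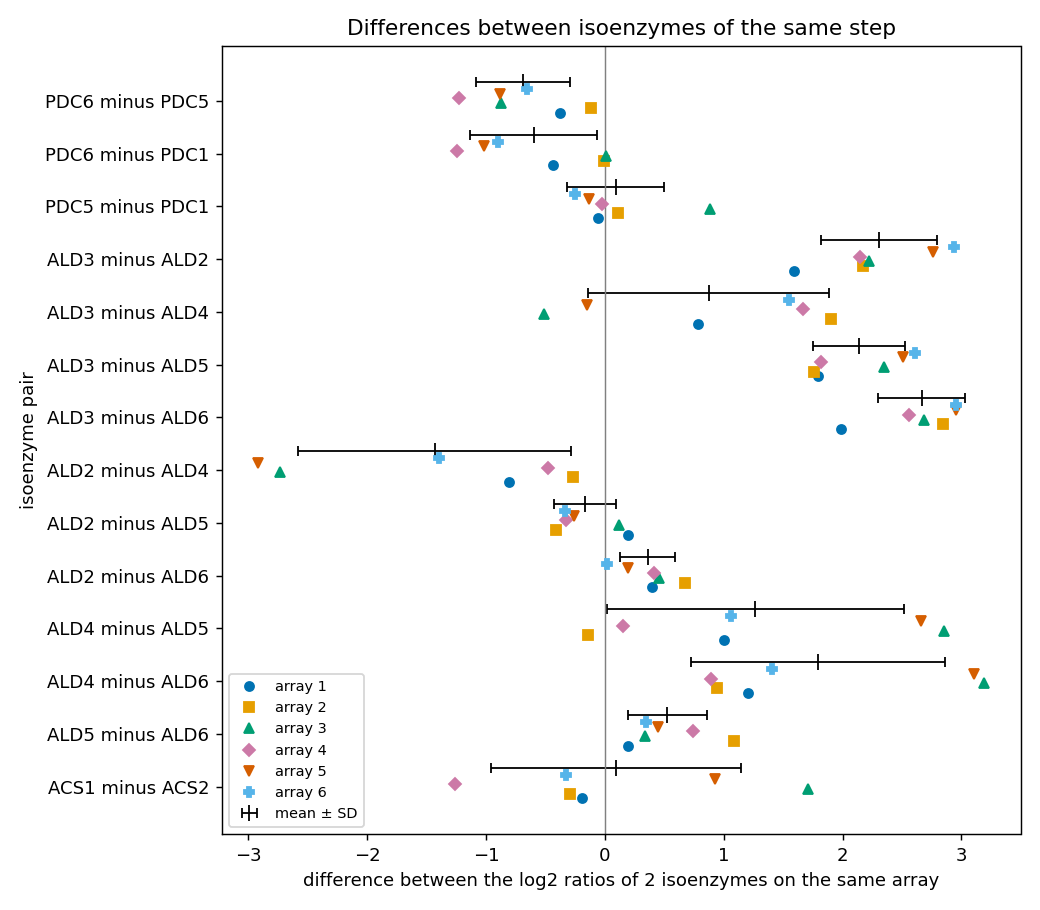
Difference between the log2 ratios of 2 isoenzymes on the same array (horizontal axis, first gene minus second) for the 14 pairs within steps, with 1 symbol per array and the mean ± SD as a bar. The 3 differences of ALD3 from ALD2, ALD5 and ALD6 are all above 1.5, whereas PDC5 minus PDC1 and ACS1 minus ACS2 lie on both sides of 0.

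In the third step neither synthetase gene passed the test in limma (0 of 2, and 0 at an unadjusted p under 0.05). ACS1, the high-affinity, glucose-repressed form, ran from -0.58 on array 4 over a median of 0.06 to 1.55 on array 3, with a mean of 0.30 ± 0.79 (limma, adjusted p = 0.424). Its SD was at the 97.0th percentile of genes. ACS1 was high on arrays 3 and 5, at 1.55 and 0.91, which were also the highest arrays for ALD4, and its spots lie in the same run as those of PDC1 and PDC6. ACS2, the form needed on glucose, ran from -0.16 on array 3 over a median of 0.11 to 0.68 on array 4, with a mean of 0.21 ± 0.33 (limma, adjusted p = 0.353). ACS1 minus ACS2 was 0.09 ± 1.05 (range -1.26 to 1.71; exact permutation, p = 0.875), with ACS1 ahead on arrays 3 and 5 and ACS2 ahead on the other 4. A difference of either sign of more than 1 unit therefore lies inside the range for this pair.

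The reactions around the bypass were described with 70 genes in 9 lists, of which 3 rose and 6 fell (12.9%, against 15.1% of all genes). The clearest group was the alcohol dehydrogenases, listed for the reaction of acetaldehyde to ethanol and back. Of these 6 genes 4 fell and 1 rose, with a median of the means of -1.17 against 0.0053 over all genes. ADH1, the main ethanol-forming enzyme, stood at -2.10 ± 0.35 (limma, adjusted p = 7.73e-06) and was at -1.60 or lower on every array. ADH2, which oxidises ethanol, stood at -2.03 ± 0.59, ADH5 at -1.31 ± 0.63 and the mitochondrial ADH3 at -1.03 ± 0.57 (adjusted p up to 0.00389). These genes are paralogs, and a signal shared between their spots was not tested. ADH4, a distinct form induced at low zinc, stood at 1.39 ± 0.88 (limma, adjusted p = 0.0039) and, like ALD4 and ACS1, was highest on arrays 3 and 5. ADH3 did not pass as deposited (limma, adjusted p = 0.0623).

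**Figure D4:**
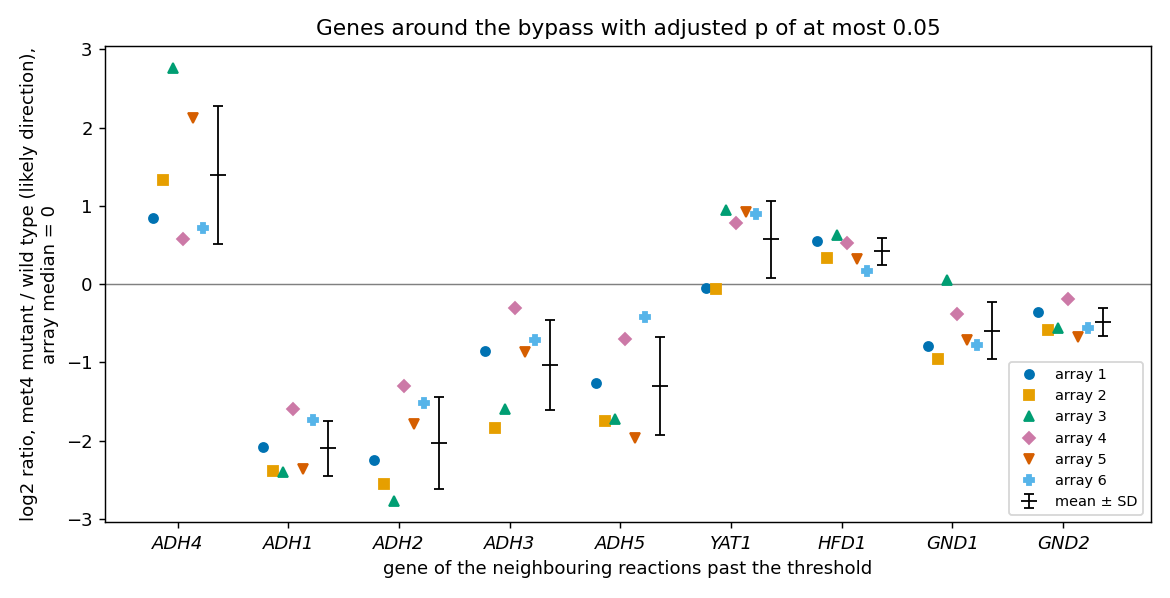
Log2 ratio of mutant over wild type (vertical axis, array median at 0) for the 9 genes of the neighbouring reactions with an adjusted p of at most 0.05, with 1 symbol per array and the mean ± SD as a bar. ADH1, ADH2, ADH3 and ADH5 lie below 0 on all 6 arrays and ADH4 above 0, between 0.57 and 2.77.

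Genes for the other fates of pyruvate did not pass in limma. Among 12 genes of the pyruvate dehydrogenase complex, its regulators and the mitochondrial pyruvate carrier, 0 passed and 3 had an unadjusted p under 0.05, with means from -0.37 to 0.60. The nearest to the threshold was PKP2, a kinase that inactivates the complex (0.60 ± 0.61, adjusted p = 0.0569). It passed without array 5 (limma, adjusted p = 0.0202), with print-order runs centred (0.0473) and with arrays 3 and 5 averaged (0.0388). Of 4 pyruvate carboxylase and pyruvate kinase genes 0 passed and 1 had an unadjusted p under 0.05, namely PYC2, a pyruvate carboxylase (0.44 ± 0.50, adjusted p = 0.109).

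Downstream, 1 of 11 genes for the use and shuttling of acetyl-CoA rose. This was YAT1, a carnitine acetyltransferase of the outer mitochondrial membrane (0.57 ± 0.49; limma, adjusted p = 0.0423), which was at -0.05 and -0.07 on arrays 1 and 2 and at 0.78 or above on the others. Its call was lost without array 3, 4, 5 or 6 (adjusted p 0.100 to 0.133) and as deposited (0.260). It was also lost with array weights (limma, adjusted p = 0.0653), equal scaling of the arrays (0.0505), the second spot row (0.0590) and arrays 3 and 5 averaged (0.118), and with print-order runs centred, where the mean was 0.35 (0.123). Of 10 genes for beta-alanine, pantothenate and coenzyme A synthesis, the second role of ALD2 and ALD3, 0 passed in limma and 2 had an unadjusted p under 0.05. FMS1, the polyamine oxidase that forms the aldehyde Ald2 and Ald3 oxidise there, was nearest (-0.44 ± 0.35, adjusted p = 0.0622). It passed without array 5 (limma, adjusted p = 0.0352) and with array weights (0.0416).

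Of 5 other members of the aldehyde dehydrogenase superfamily 1 rose, the fatty aldehyde dehydrogenase gene HFD1 (0.42 ± 0.17; limma, adjusted p = 0.0387), above 0 on 6 of 6 arrays. It did not pass as deposited, nor without array 1, 3, 4, 5 or 6, nor with arrays 3 and 5 averaged (limma, adjusted p = 0.0837). Of 6 further genes listed for cytosolic NADPH supply, not all of which make NADPH themselves, 2 fell, although the median of the 6 means was 0.18. Both encode 6-phosphogluconate dehydrogenase: GND1, the major form, stood at -0.59 ± 0.37 and GND2 at -0.49 ± 0.18 (limma, adjusted p = 0.0193 and 0.0201). GND1 was above 0 on array 3 alone, at 0.05, and neither gene passed as deposited. With print-order runs centred, GND1 missed the threshold (limma, adjusted p = 0.0764). GND1 did not pass without array 1, 5 or 6, nor GND2 without array 3, 5 or 6. With arrays 3 and 5 averaged, GND2 missed the threshold too (limma, adjusted p = 0.0562). The highest mean of the list belonged to ZWF1, at 0.815 ± 0.93 (limma, adjusted p = 0.0576). ZWF1 was above 0 on 5 of 6 arrays and did not pass.

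Transcription factors known to act on the bypass genes did not pass in limma, with 0 of 9 called and 0 at an unadjusted p under 0.05. The nearest was ADR1, an activator of glucose-repressed genes (-0.38 ± 0.54, adjusted p = 0.188), which passed as lower without array 2 (limma, adjusted p = 0.0331). Of 7 genes for acetate and weak acid handling 0 passed and 1 had an unadjusted p under 0.05. This was WAR1, the activator of the weak acid exporter gene PDR12 (0.42 ± 0.29, adjusted p = 0.0567), which was above 0 on 6 of 6 arrays. It passed with print-order runs centred (limma, adjusted p = 0.0153) and with quantile normalization (0.0430).

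For the member of each step with the largest absolute mean, the 3 genes with the smallest root mean square difference over the 6 arrays were listed. For ALD3 these were HSP30, ARG4 and INO1, at 0.43, 0.68 and 0.71 on the log2 scale. For PDC6 they were RBH2, MET4 and REE1, at 0.17, 0.17 and 0.20. For ACS1 they were ARI1, CAB4 and BNA2, at 0.19, 0.25 and 0.25. The nearest gene to ALD3, the 3rd highest of all genes, lay further away than the nearest to PDC6, the 274th lowest. The measure uses the values themselves, so it depends on how many genes lie at a similar level, which was not tested.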

How the data were processed

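The authors deposited 1 log ratio per spot and array for 13056 spots on 6 arrays, used here as log2 values; per the labels, Cy3 marked the mutant and Cy5 the wild type on every array. How images were read, corrected and normalized is not given in the sources used here. If the deposited values were natural logarithms, each printed unit would be 1.44 units on the log2 scale. Accessions tied all columns to samples, and 0 further sample columns were present. Without scanner intensities, spots near background could not be marked.

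Exact zeros (134 values) were set to missing, arrays were centred on their median over all spots, and the spots of a gene were averaged, giving 5539 genes from 11138 named spots. All 10 members were found in the R64 gene table by the platform annotation's identifiers. No value of a member was missing (0), and the 2 spots of a member differed by 0.088 (median) and 0.64 at most, for PDC5 on array 5. No sequences or genome of the arrays' build were used here.

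Whether a gene's mean differed from 0 was tested with limma 3.58.1 under R 4.3.3 (lmFit, eBayes; Benjamini-Hochberg over all genes; threshold 0.05; a value on at least 4 arrays, which removed 0 genes). Differences between isoenzymes were tested by exact permutation of signs (two-sided, 64 patterns) and adjusted over 14 pairs. The fit was tested on simulated data. Named genes were the members, MET4, every pathway gene past the threshold, the nearest gene of each list with none, and the 3 most similar genes per step. ZWF1 was named in addition, as the gene with the highest mean of its list. Members and lists were chosen with earlier results of these data known. Alternatives covered centring, scaling, quantile normalization, zeros, 48 print-order runs, single spots, missing values, robust empirical Bayes, array weights and leaving out each array; averaging arrays 3 and 5 and limma on the pair differences were added after seeing the data. Figures were drawn with matplotlib 3.10.9.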

Additional observations from a re-analysis of the deposited data

Results flagged for a closer look

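Of 39 sets of 6 values examined, 3 held an array far from the others by Dixon's criterion, and chance flags about 1 in 20 such sets. ALD2 stood at 0.73 on array 4, with the next array at 0.13. ALD5 stood at 1.05 on array 4, with the next at 0.27. The median of the surrounding run of spots on array 4 was 0.41 at ALD2 and 0.14 at ALD5, and its part in these values was not tested. PDC5 minus PDC1 was 0.89 on array 3, with the next array at 0.11.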

How the results depend on the processing

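ALD3 and ALD4 were called higher under all 17 alternative fits and PDC6 lower under 14. The exceptions for PDC6, with 0 members called lower, were the values as deposited and the fits without array 1 or without array 5. As deposited, 187 genes were called higher and 59 lower, against 521 and 315 after centring. Of the neighbouring reactions, 1 and 3 genes were called higher and lower, against 3 and 6. The share of calls above 0 thus moved with centring. With arrays 3 and 5 averaged, a fit with fewer samples, 339 and 205 genes were called. Leaving out 1 array gave 291 to 663 higher and 165 to 302 lower genes (the extremes without array 3 and array 2), 0 to 1 members lower, 2 members higher throughout, 1 to 5 neighbouring genes higher and 4 to 8 lower. Quantile normalization called 5 neighbouring genes higher and array weights called 2 higher and 9 lower; the cause was not tested. In the exact test 9 pairs passed with centring by print-order run (adjusted p = 0.0486), against 0. The pair added was ALD3 minus ALD4, whose tie at the smallest p lowered the adjusted p of the others, their own p being unchanged. In limma's test of the pair differences 9 passed. With 5 arrays the smallest exact p is 0.0625, so no pair can pass. Each ratio already pairs mutant with wild type on its array, so no further replicate block could be fitted. Without background signals, the depth of each spot is unknown.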
